A study of Caenorhabditis elegans with 40 samples.

Results

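NPR-8 is a neuropeptide receptor-related G protein-coupled receptor of *Caenorhabditis elegans*, and the question addressed here was which genes responded differently to loss of *npr-8* in young and in old animals grown at 20°C. The measure is the *npr-8* by age interaction, which is the log2 effect of the mutation in old animals minus its log2 effect in young animals. The members are the 20 libraries, of 40 in the series, that come from animals propagated at 20°C, and they were chosen from their labels alone. They form 4 groups of 5 libraries each. WT_D0_20C is wild-type *N2* young adults, npr-8_D0_20C is *npr-8(ok1439)* young adults, and WT_D9_20C and npr-8_D9_20C are adults of the same genotypes at day 9. The young animals are 0-day-old by the labels and 1-day-old in the study. The mutant is a single strain with 1 deletion allele and no rescued strain was sequenced, so effects of the allele and of the strain's background cannot be told apart. All 4 groups were fed *Escherichia coli* OP50, and RNA came from mixed whole animals. The old animals were washed daily in buffer and passed through a strainer until collection. In such bulk samples, fewer cells of a type and less RNA per cell cannot be told apart.

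Hermaphrodite worms make their sperm once, before adulthood, and then switch the germ line to oocytes, which take up yolk made by the intestine and are fertilized by the stored sperm. The epidermis secretes the collagen cuticle afresh at each larval molt. NPR-8 itself acts in sensory neurons.

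A total of 14846 genes were tested in 1 edgeR fit of all 20 libraries, with fragments scaled to counts per 1000000 fragments (CPM). Calls needed an adjusted p below 0.05 together with a log2 value of 1 or more in size. Of these genes, 1780 (12%) were called higher and 1898 (12.8%) were called lower in the interaction. A higher value means that *npr-8(ok1439)* raised the gene more, or lowered it less, in old than in young animals. The effect in young animals was called for 857 genes that were higher (5.77%) and 223 that were lower (1.5%). In old animals the counts were 1733 higher (11.7%) and 1358 lower (9.15%). The interaction therefore called about as many genes in each direction, and its median over all genes was -0.08 on the log2 scale. These numbers are those of one fit, since the simple effects share their libraries with the interaction.

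**Figure D1:**
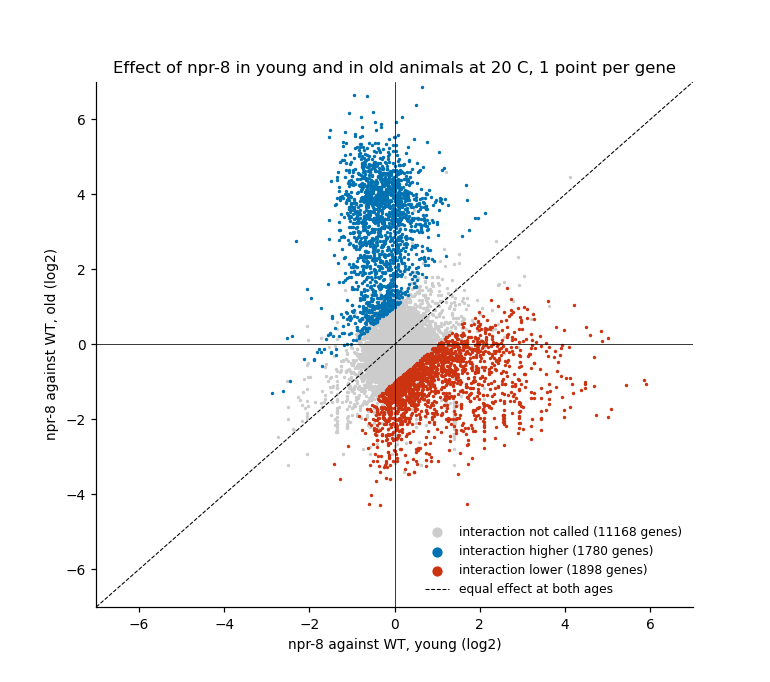
Each point is 1 of the 14846 genes tested, placed by its log2 genotype effect (mutant minus wild type) in young animals on the x axis and in old animals on the y axis. Blue points are the 1780 genes called higher in the interaction, which lie along the vertical axis above 0, and red points are the 1898 called lower, which spread to the right of and below 0. The dashed line marks an equal effect at both ages, and 2 genes lie outside the axes.

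The 2 directions differed in the age at which a genotype effect was called. A gene not called at an age can still differ there by less than the minimum size. In young animals 5766 genes had an adjusted p below 0.05 (edgeR), of which 1080 were called. Of the 1780 genes called higher, 1463 (82.2%) were called higher in old *npr-8(ok1439)* animals and not called in young ones, and 105 were lower in the young and higher in the old mutant. Of the 1898 genes called lower, 741 (39.0%) were called lower only in old animals, 527 (27.8%) were called higher only in young animals, and 179 (9.4%) were higher in the young and lower in the old mutant. A further 441 genes were called lower in the interaction with neither simple effect called. The genes called higher mostly fell with age in wild type. Their median level in wild type was 12.1 CPM in young and 0.39 CPM in old animals, and in *npr-8(ok1439)* it was 9.19 and 3.43 CPM. With age, 1561 of them (87.7%) fell in wild type, against 36.3% of all genes tested, and 1265 (71.1%) fell in the mutant, against 39.1%. The interaction is also the age effect in the mutant minus that in wild type. A high wild-type share is thus partly built into the call and is not a separate result. Over all genes, 27.2% rose with age in wild type and 27.7% in the mutant. Of the genes called lower, 595 fell and 607 rose with age in both genotypes, and a further 330 fell in the mutant alone.

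The chromosomes differed in the share of genes called. On the X chromosome 36 of 2028 genes tested (1.78%) were called higher, and on the autosomes the shares were between 10.7% (chromosome V) and 17.2% (chromosome IV). The X chromosome also had the largest share called lower, 462 genes or 22.8%, where chromosome III had 5.97%. The genes were placed by the positions in the authors' tables (build ce10), where loci of some genes, among them *gsp-3*, *col-98*, *clec-73*, *rol-1*, *dpy-3*, *sea-1*, *dsl-2* and *sepa-1*, span over 100000 bases and take in their neighbors, so no position is given for these.

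The largest positive interactions were those of genes that old wild-type animals had nearly lost and old mutants had kept. The uncharacterized gene *C36H8.1* (chromosome IV, 12743071 to 12744715, ce10) had 96.7, 140, 98.4, 140 and 109 CPM in young wild type. Its levels in young mutants were 65.0, 60.3, 59.4, 63.8 and 59.96 CPM. In old wild type it had 0.302, 1.16, 0.895, 0.179 and 0.434 CPM, and in old mutants 25.1, 23.8, 19.1, 22.9 and 24.5 CPM. The old groups were apart by more than an order of magnitude in all libraries, whereas the young groups were apart in the opposite direction. Its log2 interaction was 6.16 ± 0.28 (SE, adjusted p = 2.41e-13), from -0.92 in young and 5.24 in old animals. *B0393.4* (chromosome III, 4759768 to 4763521) gave the same order, with 64.3 ± 10.5 CPM (SD, n = 5) in young wild type, 27.8 ± 3.95 in young mutants, 0.461 ± 0.0928 in old wild type and 18.4 ± 1.25 in old mutants. Its interaction was 6.51 ± 0.19 (adjusted p = 8.87e-18). *AC7.3* and *Y1A5A.1* had interactions of 6.83 ± 0.27 (adjusted p = 4.39e-16) and 6.51 ± 0.21 (adjusted p = 3.08e-17). *K09C6.2*, named by its values only, had 9.77 to 12.8 CPM in young wild type, 5.01 to 6.66 in young mutants, 1.71 to 2.94 in old mutants and 2 fragments in the 5 libraries of old wild type.

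**Figure D2:**
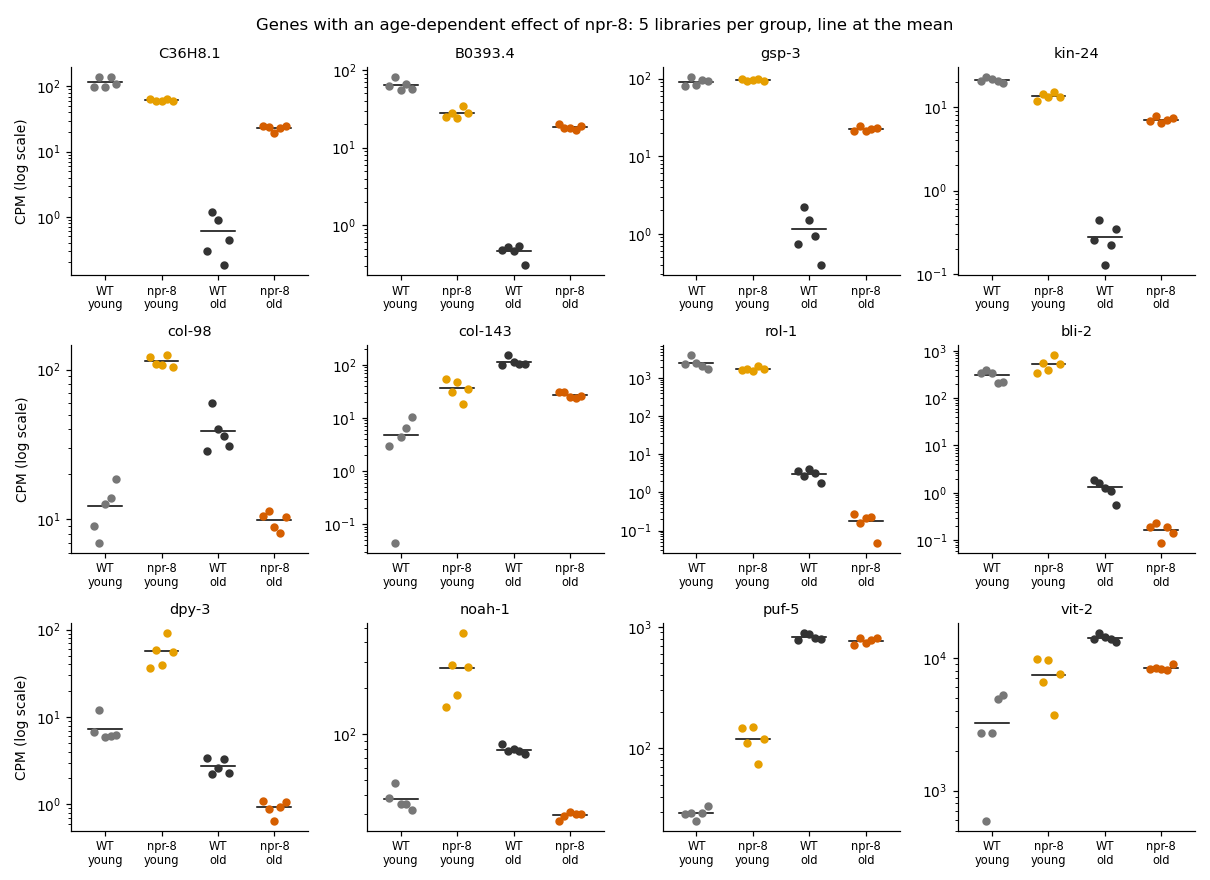
CPM of 12 genes on a log axis, 1 point per library (5 per group) with a line at the mean, in young and old wild type (gray and black) and in young and old *npr-8(ok1439)* (light and dark orange). *C36H8.1*, *B0393.4*, *gsp-3* and *kin-24* are low in old wild type alone, *col-98*, *col-143*, *dpy-3* and *noah-1* are higher in the young and lower in the old mutant, *rol-1* and *bli-2* are lower in the old mutant, *puf-5* rises with age from a higher start in the mutant, and *vit-2* is highest in old wild type.

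Nearly all tested sperm genes with known products were called higher, although they are a small part of the 1780 genes. Among the major sperm proteins (MSPs), which build the cytoskeleton of the crawling sperm and signal to oocytes, 27 of 29 tested genes were called higher and none lower, with a median interaction of 2.52 against -0.08 over all genes tested. Of the other sperm genes (*spe*, *fer*, *ssp* and related names), 44 of 45 were called higher with a median of 3.31, and *ssp-37* was called lower (-2.53). All 5 tested protein kinases and phosphatases of sperm were called higher, with a median of 4.32. This list is not a separate group, as *spe-8*, *gsp-3* and *gsp-4* are also among the other sperm genes. In old animals 29 of 29 MSP genes and 43 of 45 other sperm genes were higher in *npr-8(ok1439)*, whereas in young animals 3 of each were higher and 1 of each was lower. The MSP genes are nearly identical in sequence, so fragments may be shared among them and single MSP values are uncertain.

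Summed over the 29 MSP genes, the levels in young wild type were 2064 to 2610 CPM and in young mutants 2995 to 3643 CPM. In old animals the sums were 10.4 to 77.5 CPM in wild type, with a median of 36.7, and 328 to 382 CPM in the mutant. No library of one genotype reached the range of the other at either age. The other sperm genes summed to 1544 to 1753 and 1712 to 1794 CPM in young animals, where the genotypes overlapped, and to 100.4 to 124 and 519 to 539 CPM in old ones. Both genotypes fell with age in both sums.

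Among the single genes, *gsp-3*, a sperm-specific type 1 protein phosphatase with a near-identical partner in *gsp-4*, was alike in young wild type (79.3 to 105 CPM) and young mutants (94.4 to 100.4 CPM). In old wild type it had 0.735, 2.21, 1.49, 0.939 and 0.390 CPM and in old mutants 21.4, 24.8, 20.9, 22.7 and 22.9 CPM. The interaction was 4.17 ± 0.25 (adjusted p = 1.4e-11). *spe-8*, a tyrosine kinase that activates sperm, had an interaction of 4.42 ± 0.23 (adjusted p = 6.01e-14) and *kin-24*, a kinase of the same family, 5.25 ± 0.19 (adjusted p = 1.12e-16). For *kin-24* the old groups were at 0.128 to 0.441 CPM in wild type and 6.51 to 7.70 CPM in the mutant. *spe-10*, a palmitoyl transferase needed to form the sperm organelles, went from 13.6 to 16.9 CPM in young wild type to 0 to 0.241 CPM in old wild type, and from 7.98 to 9.70 to 3.11 to 3.90 CPM in the mutant. *msp-142* fell by 6.13 on the log2 scale with age in wild type and by 2.76 in the mutant, an interaction of 3.37 ± 0.26 (adjusted p = 1.46e-09). *msp-81* had an interaction of 3.28 ± 0.30 (adjusted p = 2.82e-08).

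The same course was seen in single members of families that serve many tissues. *ant-1.4*, an adenine nucleotide translocator, had 67.5 to 77.1 CPM in young wild type, 35.5 to 49.0 in young mutants, 0.432 to 0.762 in old wild type and 17.9 to 21.5 in old mutants, and its interaction was 6.02 ± 0.15 (adjusted p = 2.1e-18). *his-70*, a histone H3 gene, had an interaction of 5.62 ± 0.25 (adjusted p = 5.63e-15). Of the 33 tested histone genes, 5 were called higher (15.2%) and 3 lower (9.09%), near the 12% and 12.8% of all genes. Of 64 lipid metabolism genes, 11 were called higher and 11 lower (17.2% each, against 12% and 12.8% of all genes). The fatty acid elongase *elo-7* (6.15 ± 0.24, adjusted p = 4.02e-16) and the acyl-CoA synthetase *acs-10* (4.64 ± 0.15, adjusted p = 2.49e-17) were among the higher ones. The C-type lectin *clec-73* had 1.30, 2.29, 1.36, 1.25 and 0.520 CPM in old wild type and 34.4, 32.1, 31.2, 32.4 and 32.7 CPM in old mutants, with 103.6 to 152 CPM in all young libraries. Of 134 *clec* genes in its family, 16 were called higher (11.9%, near the 12% of all genes). A further 44 were called lower (32.8%, against 12.8% of all genes), or 25 on log2(FPKM + 1). The F-box gene *fbxa-202* had an interaction of 5.25 ± 0.18 (adjusted p = 5.11e-17), and in its family 18 of 139 genes were called in each direction. Shares of the *fbxa* genes in both directions (12.9% each) were thus near those of all genes.

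Levels of male-specific neuron genes were looked up beside these results, since males make sperm throughout adulthood. The list (*pkd-2*, *lov-1* and 4 *cwp* genes) was chosen after the values were seen. Its summed level was 0.657 to 1.59 CPM in young wild type, 1.05 to 1.68 in young mutants, 1.36 to 1.74 in old wild type and 2.18 to 2.41 in old mutants. The largest of the 6 genes in old mutants, *lov-1*, was at 0.769 CPM there and at 0.581 CPM in old wild type. In the same order *cwp-4* was at 0.624 and 0.618 CPM, *pkd-2* at 0.564 and 0.24, and *cwp-2* at 0.198 and 0.0697. *cwp-1* (0.034 and 0.0171) and *cwp-3* (0.0652 and 0.0332) were lower still. Whether males were present was not tested.

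The interaction was lower for genes of the cuticle. Of 126 tested *col* genes, which encode cuticle collagens, 70 were called lower (55.6%) and 3 higher, with a median of -1.83. Most of this came from the old animals: 73 *col* genes were called lower and 2 higher in old *npr-8(ok1439)*, whereas in young animals 15 were higher and 3 lower. Of the 70 genes, 54 were called lower in old animals only, 10 were higher in young and lower in old mutants, 4 were higher in young mutants only and 2 had neither effect called. In both genotypes collagens fell with age, 102 of the 126 in wild type (median log2 -5.50) and 109 in the mutant (median -7.06). Summed *col* levels were 56920 to 70420 CPM in young wild type and 49810 to 68630 in young mutants, which overlapped. In old animals they were 2692 to 4526 CPM in wild type and 561 to 756 in mutants, which did not. On log2(FPKM + 1), 49 of 113 *col* genes were called lower in the interaction with a median of -0.767, and limma-voom called 59 lower.

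**Figure D3:**
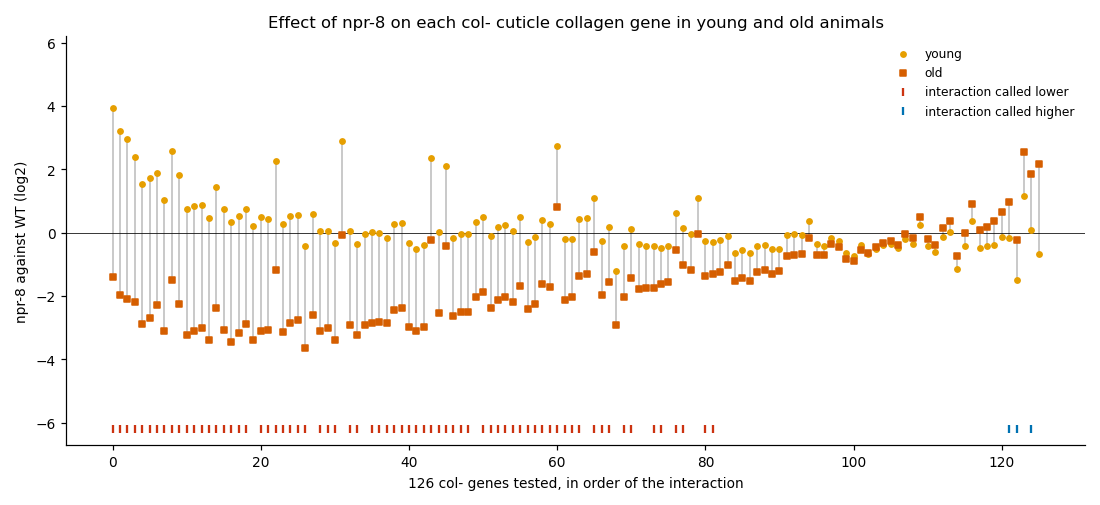
Log2 effect of *npr-8(ok1439)* against wild type for each of the 126 *col* genes tested, ordered by the interaction, with circles for young and squares for old animals joined by a line. Ticks at the bottom mark the 70 genes called lower and the 3 called higher in the interaction. Most squares lie below 0, with many between -2 and -3, while most circles lie near 0.

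The *col* genes with the largest negative interactions were those that the young mutant had in excess. *col-98* had 8.99, 6.93, 12.7, 13.8 and 18.6 CPM in the young wild-type libraries and 122, 109, 107, 126 and 104.3 CPM in young mutants. In old animals it had 28.7, 59.6, 40.2, 36.04 and 30.8 CPM in wild type and 10.6, 11.3, 8.95, 8.12 and 10.3 CPM in the mutant. The order of the genotypes was thus reversed with age in all libraries, with effects of 3.22 ± 0.23 in young and -1.99 ± 0.23 in old animals and an interaction of -5.20 ± 0.32 (adjusted p = 1.12e-10). *col-143* (chromosome V, 6835637 to 6836646) rose with age in wild type, from 0.0436 to 10.2 CPM in young to 99.6 to 155 CPM in old animals. In mutants it was 18.2 to 53.4 CPM in young and 23.4 to 30.7 CPM in old animals, and its interaction was -5.03 ± 0.60 (adjusted p = 1.58e-06). The lowest young value of *col-143* was from wild-type replicate 2. *col-135* (-5.33 ± 0.41, adjusted p = 1.04e-09) and *col-103* (-4.59 ± 0.32, adjusted p = 7e-10) followed the same order. *col-149* (chromosome V, 10291769 to 10292787) fell with age in both genotypes, from 13.9 to 134 to 1.78 to 5.13 CPM in wild type and from 189 to 264 to 0.298 to 0.856 CPM in mutants.

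Collagens known from mutants with altered body shape fell into sets with different courses. The furrow collagens form the ring-shaped grooves of the cuticle, and all 5 that were tested were called lower in the interaction, with a median of -3.88. They were all called higher in young mutants (median 2.80) and 4 of the 5 were called lower in old mutants (median -1.06). *dpy-3* had 6.72, 11.9, 5.93, 6.03 and 6.31 CPM in young wild type and 36.03, 58.1, 39.1, 92.2 and 55.9 CPM in young mutants. In old animals it had 2.21 to 3.37 CPM in wild type and 0.642 to 1.11 CPM in mutants, and the interaction was -4.50 ± 0.43 (adjusted p = 3.36e-08). *dpy-8* and *dpy-7* had interactions of -4.13 ± 0.52 (adjusted p = 2.23e-06) and -3.66 ± 0.44 (adjusted p = 1.22e-06). Summed furrow collagens were 49.9 to 94.2 CPM in young wild type, 256 to 658 CPM in young mutants, 12.56 to 20.8 CPM in old wild type and 5.99 to 8.12 CPM in old mutants.

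The other body-shape collagens (*bli*, *rol*, *sqt* and further *dpy* genes) were called lower in 13 of 14 cases with a median of -2.93, and here the change was in the old animals, with 13 called lower in old mutants and only *bli-1* called higher in young ones. *rol-1*, whose mutation makes worms roll, had 2425, 4113, 2446, 2048 and 1754 CPM in young wild type and 1619, 1738, 1542, 2065 and 1732 CPM in young mutants, with overlap. In old wild type it had 3.59, 2.77, 4.13, 3.17 and 1.78 CPM and in old mutants 0.267, 0.155, 0.214, 0.223 and 0.0462 CPM. Its interaction was -3.46 ± 0.54 (adjusted p = 2.93e-05). *bli-2*, needed for the struts of the adult cuticle, was at 206 to 402 CPM in young wild type, 334 to 823 in young mutants, 0.564 to 1.90 in old wild type and 0.0856 to 0.233 in old mutants, an interaction of -3.72 ± 0.80 (adjusted p = 0.000732). These old levels are low: 21 fragments of *bli-2* and 23 of *rol-1* were counted over the 5 libraries of old mutants. The call for *rol-1* was lost on log2(FPKM + 1) and that for *bli-2* with limma-voom. Of the 14 body-shape genes, 12 were called lower on log2(FPKM + 1), with a median of -1.67, and 11 with limma-voom. None of 11 tested collagen-processing genes was called in either direction (median -0.37), at an adjusted p of 0.05 and a log2 size of 1.

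Some other secreted matrix and molting genes were also called lower, with a smaller share changed at each age than among the furrow collagens. Of 36 cuticlin and zona pellucida-domain genes, 16 were called lower and 3 higher, with 10 higher in young mutants and 11 lower in old ones. On log2(FPKM + 1), 10 of 31 were called lower. *noah-1*, an apical matrix protein of the molting epidermis, had 31.6 to 48.1 CPM in young wild type, 151 to 463 in young mutants, 74.4 to 86.4 in old wild type and 26.8 to 30.8 in old mutants. The groups did not overlap at either age, and the interaction was -4.29 ± 0.32 (adjusted p = 2.47e-09). The fibrillin *fbn-1* (-4.72 ± 0.28, adjusted p = 4.37e-11), the lipocalin *lpr-3* (-4.51 ± 0.35, adjusted p = 4.47e-09) and the leucine-rich repeat protein *sym-1* (-4.45 ± 0.27, adjusted p = 5.88e-11) had the same reversal. Of 24 molting genes, 4 were higher in young mutants and 5 lower in old ones, and 7 were called lower in the interaction, among them the protease inhibitor-like *mlt-11* (-3.89 ± 0.34, adjusted p = 2.09e-08), and *ptr-11* was called higher (1.57). Of 39 hedgehog-related genes, a family expanded in worms and expressed largely in epidermis, 17 were called lower and 3 higher (11 lower with limma-voom and on log2(FPKM + 1)), with *wrt-10* at -4.60 ± 0.27 (adjusted p = 2.22e-11).

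**Figure D4:**
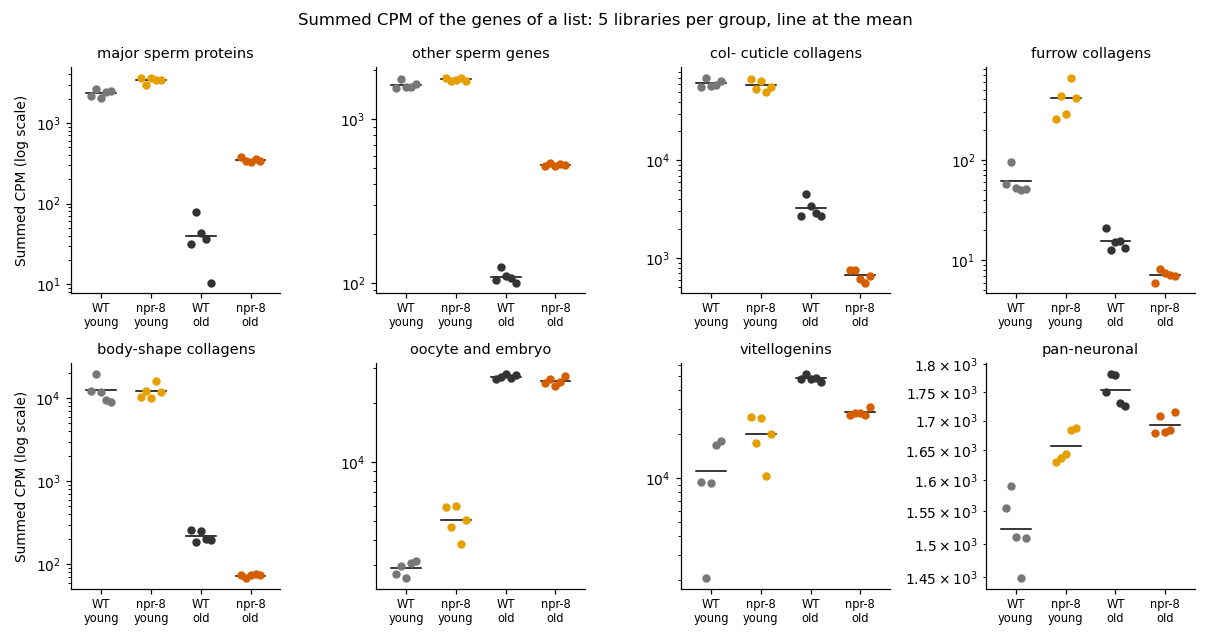
Summed CPM of 8 gene lists on a log axis, 1 point per library (5 per group) with a line at the mean, in young and old wild type (gray and black) and young and old *npr-8(ok1439)* (light and dark orange). Both sperm panels are lowest in old wild type, with MSP sums of 10.4 to 77.5 CPM, the *col* and body-shape panels are lowest in old mutants, and the pan-neuronal panel lies between 1448 and 1783 CPM throughout.

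The young libraries also differed from each other along genes of the late larval molt and of adult reproduction. Summed levels of the 24 molting genes were 2070 to 3588 CPM in young wild type and 2713 to 5468 CPM in young mutants, and the summed vitellogenins were 2059 to 18090 and 10360 to 26100 CPM. Wild-type replicate 2 had the lowest vitellogenin sum of young wild type and the highest molting sum, and mutant replicate 4 had the lowest vitellogenin sum of young mutants and the highest molting sum. Without both of these libraries, an alternative chosen after seeing the data, 1776 genes were called higher and 1962 lower in the interaction, 74 *col* genes and all 5 furrow collagens were lower, and 27 MSP and 44 other sperm genes were higher. The part of these differences between young libraries in the interaction was not tested beyond this.

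Oocyte and yolk genes also had negative interactions, from a different pattern. Of 30 oocyte and early embryo genes, 15 were called lower and none higher (median -1.04). In young animals 17 were called higher in *npr-8(ok1439)* and none lower, and in old animals none was called in either direction, where 9.15% and 11.7% of all genes were called lower and higher. All 30 rose with age in both genotypes. *puf-5*, an RNA-binding protein of the oocyte, had 28.99, 29.6, 25.1, 29.2 and 33.6 CPM in young wild type and 148, 111, 150.2, 74.0 and 118 CPM in young mutants. In old animals it had 773 to 894 and 710.5 to 811 CPM, which overlapped, and the interaction was -2.14 ± 0.19 (adjusted p = 1.38e-08). *rme-2*, the yolk receptor, had an interaction of -1.59 ± 0.14 (adjusted p = 5.37e-09), and *cpg-1*, an eggshell proteoglycan, -1.59 ± 0.20 (adjusted p = 1.21e-06). Summed, the list gave 2553 to 3121 CPM in young wild type, 3843 to 5957 in young mutants, 26450 to 28240 in old wild type and 24440 to 27340 in old mutants. Meiosis genes gave 1 called higher of 18 and none lower, and cell cycle and replication genes 2 called lower of 30. Of 10 P granule genes, which form the germ granules, 2 were called lower and none higher, with a median of 0.05. *meg-1* was one of the lower ones (-2.80 ± 0.22, adjusted p = 1.61e-09), while the list summed to 3232 to 3378 CPM in old wild type and 4054 to 4238 CPM in old mutants. Without the minimum size, 27 of the 30 oocyte and early embryo genes were called lower, where 4515 of all 14846 genes tested were.

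The vitellogenins, yolk proteins of the intestine, were called lower in 5 of 6 cases with a median of -2.29. *vit-1* had 172, 47.2, 171, 270 and 310 CPM in young wild type and 656, 443, 601, 284 and 516 CPM in young mutants. In old wild type it had 1355, 2130, 1440, 1576 and 932.8 CPM and in old mutants 363, 385, 365, 332 and 424 CPM. The interaction was -3.36 ± 0.51 (adjusted p = 2.65e-05), and the old groups were well apart while the young groups overlapped. *vit-3* was alike in young animals (0.12 ± 0.33, adjusted p = 0.818) and lower in old mutants, and its interaction was -2.90 ± 0.48 (adjusted p = 6.33e-05). The interaction of *vit-2* was -1.96 ± 0.55 (adjusted p = 0.0058). Vitellogenin genes share sequence, *vit-3* with *vit-4* and *vit-5* most of all, so their values are not independent. With single libraries left out, between 4 and 6 of the 6 genes were called, and with genes assigned by accession alone 2 of 3.

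A group of genes that were nearly silent in young wild type had some of the lowest interactions and are given by their values. *skr-7*, a Skp1-related ubiquitin ligase component with close copies among the *skr* genes, had 2 fragments in all in young wild type and 0.276 to 0.887 CPM in young mutants. In old animals it had 69.8 to 78.3 CPM in wild type and 19.5 to 22.1 CPM in mutants. The T-box gene *sea-1*, which takes part in counting chromosomes for sex determination in the embryo, had 1 fragment in all in young wild type, 0.322 to 1.19 CPM in young mutants, 45.7 to 52.0 CPM in old wild type and 23.9 to 26.5 CPM in old mutants. *btb-6*, a BTB-domain gene, had an interaction of -4.91 ± 0.43 (adjusted p = 9.46e-10). Of 19 *skr* genes, 7 were called lower (36.8%, against 12.8% of all genes). Without the minimum size 11 of them were called lower, where 4515 of all 14846 genes tested were. Markers of embryos were read beside these. Summed over 13 genes, they were 83.4 to 115 CPM in young wild type, 95.1 to 99.9 in young mutants, 238 to 266 in old wild type and 178 to 198 in old mutants, so the young groups overlapped and the old mutants were lower. Their part in the result was not tested.

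In all, 179 genes were called higher in young and lower in old mutants and 105 the reverse. Beside *col-143*, *col-103* and others above, the largest of these included *dsl-2*, a Notch ligand family gene, and *sepa-1*, a receptor for autophagy of germline granules, each with 1 fragment in all in young wild type. In young mutants *dsl-2* had 0.0460 to 0.153 CPM, and in old animals 33.2 to 38.03 CPM in wild type and 6.71 to 8.34 CPM in mutants. *sepa-1* had 0 to 0.140 CPM in young mutants, 37.1 to 48.0 CPM in old wild type and 8.25 to 9.80 CPM in old mutants. Their reversal thus rests on a few fragments in young animals. In the other direction *Y37H2A.10* had 0.0412 to 0.182 CPM in young wild type, 0 to 0.0388 in young mutants, 0.0434 to 0.298 in old wild type and 0.855 to 1.67 in old mutants.

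Defense genes of 2 tissues were called lower in different ways. Of 17 antimicrobial peptide genes of the epidermis, 12 were called lower and none higher (median -1.70), and 10 were called higher in young mutants. *cnc-2* had 0 to 0.364 CPM in young wild type, 1.68 to 3.08 in young mutants, 8.74 to 11.2 in old wild type and 6.30 to 7.53 in old mutants, with an interaction of -3.77 ± 0.34 (adjusted p = 1.53e-09). *nlp-29*, which is induced by wounding and fungal infection, had an interaction of -2.0 ± 0.28 (adjusted p = 3.2e-06). Of 13 lysozyme genes, 6 were called lower and 1 higher, and for these the difference lay in old animals. *ilys-5* was alike in young animals (1235 to 1434 and 1172 to 1444 CPM) and had 538 to 650 CPM in old wild type and 145 to 170.0 CPM in old mutants, an interaction of -1.78 ± 0.09 (adjusted p = 3.74e-14). *lys-10* was at 4.67 to 7.16 CPM in old wild type and 0.484 to 0.661 in old mutants (interaction -2.63 ± 0.24, adjusted p = 1.8e-09). Of 19 intestinal protease genes, 8 were called lower and 2 higher, with the cathepsin B-like *cpr-4* at -1.87 ± 0.11 (adjusted p = 2.67e-12).

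Gene families with roles in detoxification were called lower more often than higher. Counts were 17 lower and 2 higher of 59 UDP-glucuronosyl transferases, 13 lower and none higher of 64 cytochrome P450 genes and 11 lower and 1 higher of 36 glutathione S-transferases. The shares called lower were 28.8%, 20.3% and 30.6%, where 12.8% of all genes tested were called lower and 12% higher. Lipid metabolism genes were evenly split, as given above, and *fat-7* and *acdh-1* are among the 11 called lower. *fat-7*, a stearoyl-CoA desaturase, had 219 to 294 CPM in young wild type, 100.4 to 119.7 in young mutants, 15.6 to 35.4 in old wild type and 1.71 to 2.41 in old mutants. It was lower in the mutant at both ages, by -1.27 ± 0.14 in young and -3.59 ± 0.19 in old animals, and the interaction was -2.32 ± 0.24 (adjusted p = 1.38e-07). *acdh-1*, an acyl-CoA dehydrogenase that responds to propionate, had an interaction of -1.80 ± 0.13 (adjusted p = 1.48e-10), and the nuclear hormone receptor *nhr-114* one of -2.25 ± 0.21 (adjusted p = 2.43e-08). In the family of *nhr-114*, 15 of 178 genes were called lower (8.43%) and 4 higher (2.25%), both below the shares of all genes. Body wall muscle genes were called lower in 8 of 16 cases with a median of -1.05. *unc-54*, the main myosin heavy chain, had 4865 to 6505 CPM in young wild type, 7126 to 7532 in young mutants, 167 to 321 in old wild type and 93.5 to 118 in old mutants (interaction -1.63 ± 0.17, adjusted p = 6.33e-08). The troponin T gene *tnt-2* had an interaction of -2.11 ± 0.23 (adjusted p = 2.74e-07).

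**Figure D5:**
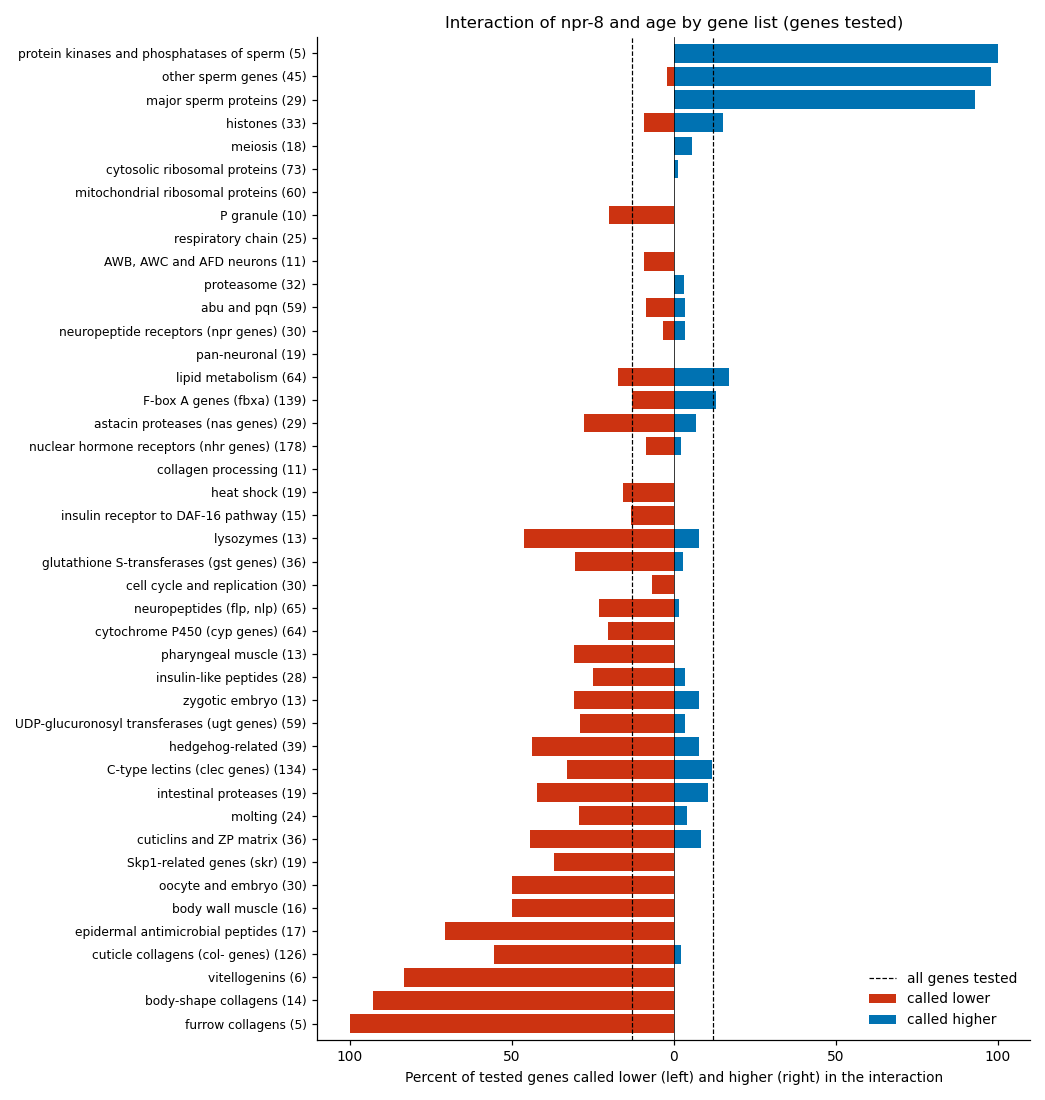
Percent of the tested genes of each list called lower (red, to the left) and higher (blue, to the right) in the *npr-8* by age interaction, with the number tested in parentheses and lists ordered by their median log2 value. Dashed lines mark all genes tested, 12.8% lower and 12% higher. The 3 sperm lists reach above 90% on the right, and the furrow and body-shape collagens and vitellogenins reach above 80% on the left.

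Several gene groups showed little interaction, or a share called lower near that of all genes. Of 60 mitochondrial ribosomal protein genes, 25 respiratory chain genes and 19 pan-neuronal genes none was called in either direction, with medians of 0.10, 0.02 and -0.21. Of 73 cytosolic ribosomal protein genes 1 was called, *rpl-42* (2.68), and of 32 proteasome genes 1, *rpn-6.2* (1.30). Of 30 tested *npr* genes, relatives of *npr-8*, *npr-15* was called higher (1.30) and *npr-1* lower (-1.19). Of 15 genes of the insulin receptor to DAF-16 pathway 2 were called lower, *dod-24* (-2.24) and *sod-3* (-1.85), a share near that of all genes. Heat shock genes gave 3 called lower of 19 (15.8%, against 12.8% of all genes) and none higher, with a median of -0.38.

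The *npr-8* gene (chromosome X, 7377273 to 7388160, ce10) was not among the genes that could be joined across the tables, so it was not tested. In the gene tables it had 72, 66, 71, 69 and 58 fragments in young wild type and 56, 63, 93, 65 and 82 in young mutants. In old wild type it had 44, 51, 42, 33 and 41 fragments. The authors' mean FPKM was 1.58 in old wild type and 2.14 in old mutants, and 2.32 and 2.51 in young animals. The young groups thus overlapped at this gene. A deletion allele can leave the rest of the transcript in place, so the count over the gene does not check the genotype, which was taken from the labels.

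The libraries held 21867886 to 27436760 fragments on the genes used, with TMM factors between 0.952 and 1.036, and the 10 most abundant genes held 5.13% to 8.34% of them. The first principal component (88.2% of the variance) separated the ages, and the second (7.5%) separated the genotypes in old animals, with scores of 39.3 to 47.0 in wild type and -49.0 to -47.2 in mutants. In young animals the genotypes were furthest apart on the third component (2.1%), where wild-type replicate 2 was at -33.6 and the other 4 wild-type libraries were at -23.6 to -14.5. They also did not overlap on the first (-119.6 to -113.9 in wild type, -112.3 to -104.1 in mutants) or the second (-6.7 to 0.3 and 3.8 to 7.3). The old genotypes were apart on the first component too, at 117.9 to 128.1 in wild type and 100.5 to 103.8 in mutants. Cell type markers were read only where they passed the filter on counts, so markers that it removed were not checked. The 19 tested markers of neurons, 16 of body wall muscle, 10 of intestine, 74 of sperm and 30 of oocytes had fragments in every group. Of 13 tested embryo markers 1 was at 0 in young mutants, and of 131 epidermal markers 2 were at 0 in old mutants. Nothing in the labels says that the 5 libraries of a group came from separate cultures, so the p-values measure the spread between these libraries.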

How the data were processed

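RNA of 20 libraries (5 per group) at 20°C was analyzed. The authors aligned reads to ce10 with HISAT2 by the study's methods, and ran Cuffquant and Cuffdiff; the submitters' processing notes name Bowtie2 2.3.4 and Cufflinks 2.2.1. The deposited tables used here give expected counts, that is fragments estimated per gene (young) or per transcript (old) before scaling. They also give FPKM, scaled table by table in the Cuffdiff runs of the authors. Columns of fold changes and p-values by the authors, and 6 columns of scaled fragments, were not used. Tables number the libraries of a group from 0, read here as replicates 1 to 5, which only names them.

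Transcripts were summed to genes, by accession (43762 of 49823 transcripts), by an equal match of old wild-type fragments to the same libraries' gene values (2245, within 1 fragment or 1%) or by FPKM (244). A gene was kept if its summed old wild-type fragments matched the gene values, within 1 fragment or 1%, and its FPKM also matched. For this its summed FPKM in old mutants had to lie within 2% of the authors' own gene value. Genes without such an FPKM ratio were kept on their fragments if assigned by accession. Of 13851 genes averaging 10 fragments or more in old wild type, 12970 (93.6%) were kept, with 91.4% of the fragments of each old group and 89.9% of the young ones. A further 104 genes marked as failed were left out, and 11 names turned into dates were left as they are. The loci of 3214 kept genes span over 100000 bases and overlap others.

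Fragments were rounded and fitted in edgeR 4.0.16 (R 4.3.3) as 1 model of the 4 groups: filterByExpr (minimum count 10, minimum total 15), TMM, robust quasi-likelihood F tests (two-sided), and Benjamini-Hochberg adjustment over the genes of a comparison. Standard errors were taken as the size of the log2 value over the root of F. The prior count was 0.125. CPM are fragments per 1000000, after TMM. The biological coefficient of variation was 0.107. Fits were tested on simulated data. Counting error only is covered by fragment totals, as no molecular identifiers are given.

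The genes named were, by a rule, the 15 largest interactions in each direction among genes with 10 CPM in a group and over 3 fragments in each, 3 in each direction with fewer fragments, 10 with opposite effects at the 2 ages, up to 4 called genes of each of 43 lists per direction, and *npr-8*; the text gives part of these 206 genes. Genes, lists and comparisons were chosen with earlier results of these data known. Alternatives were RLE factors, library size alone, all-gene totals, no filter, DESeq2 1.42.0, limma-voom (limma 3.58.1), limma on log2(FPKM + 1), old wild-type fragments from the gene table, accession-assigned genes only, a replicate block, the 2 groups of a comparison alone, other thresholds and leaving out each library. Promoter motifs were not analyzed here, and no sequence is shown.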

Additional observations from a re-analysis of the deposited data

Results flagged for a closer look

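The effect of *npr-8(ok1439)* differed between young and old animals by the interaction term itself for 1780 genes that were higher and 1898 that were lower (edgeR, adjusted p). In addition, 1 library of 5 stood apart from the other 4 of its group by Dixon's criterion (0.71) in 20 of 276 sets checked. Chance alone gives about 1 in 20 for independent sets. These sets are not independent, as the sums hold some of the single genes. *sea-1*, *dsl-2* and *sepa-1* in young wild type rest on 1 fragment each. The count can thus not be set against that rate.

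Young wild type gave the most. Replicate 2 was the high value for *dpy-3* (11.94 CPM), *dpy-8* (24.75), *dpy-7* (21.18), *lpr-3* (30.72), *mlt-11* (91.98), *spe-8* (26.58) and the summed furrow collagens (94.21), and replicate 4 for *spe-10* (16.86). *sea-1* (0.04123 CPM), *dsl-2* (0.0379) and *sepa-1* (0.04381) each had their only fragment of young wild type in 1 library. In young mutants *tnt-2* was low in replicate 2 (924.3 CPM).

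In old wild type *col-143* was high in replicate 2 (154.9 CPM) and *ilys-5* in replicate 5 (649.8). In old mutants *Y1A5A.1* was low in replicate 3 (8.175 CPM), *dpy-8* in replicate 1 (0.3818) and *tnt-2* in replicate 4 (11.09), the summed body-shape collagens were low in replicate 2 (67.44), and *vit-2* (8978) and the summed vitellogenins (30780) were high in replicate 5. Causes were not tested.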

How the results depend on the processing

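Of 206 genes named by the rule, 172 kept direction and call in every alternative they were tested in, out of 34 alternatives of which 20 left out 1 library. Calls of the other 34 were lost in some, and on log2(FPKM + 1) *phat-1* (0.08) and *fbxa-181* (0.007) changed sign. With 1 library left out the interaction called 1778 to 1842 genes higher and 1761 to 1945 lower, the young comparison 833 to 908 and 211 to 247, the old one 1728 to 1768 and 1310 to 1397, age in wild type 4018 to 4091 and 5406 to 5465, and age in mutants 4113 to 4232 and 5721 to 5855. Without the minimum size, counts (higher, lower) were 3635 and 4515 for the interaction, 3321 and 2445 in young and 4576 and 4703 in old animals, with 6373 and 6187 genes higher with age in wild type and in mutants. With limma on log2(FPKM + 1), 546 genes were higher and 118 lower in young mutants and 771 lower in old ones, while the interaction gave 1562 and 1432. DESeq2 called 1816 and 1844, limma-voom 1785 and 2032, and RLE factors 1808 and 1824 in the interaction.

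Replicate numbers name libraries only. Same-numbered libraries of the 2 genotypes correlated between -0.45 and 0.12 in their deviations from the group means, and with the replicate block the interaction called 1767 genes higher and 1892 lower. Scaling by RLE factors moved the median age effect from -0.14 to -0.022 in wild type and from -0.292 to -0.14 in mutants. Genes with few fragments in a group limit the precision of their fitted values.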

Other observations

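Gene families outside the lists also had calls in the interaction, and those given here were picked after the values of all families were seen. Of all genes tested, 12.8% were called lower and 12% higher in the interaction. In the simple effects, 9.15% of all genes were lower in old mutants and 5.77% higher in young mutants. Of 92 tested *fbxb* genes, F-box genes of a family expanded in worms, 31 were called lower and 2 higher with a median of -2.25, and 83 were called lower in old mutants. Of 34 *fbxc* genes 11 were called lower and 3 higher. Of the small secreted peptide families, 10 of 13 *nspc* genes and 8 of 16 *fipr* genes were called lower and none higher, and 6 and 10 of them were higher in young mutants. Homeobox (*ceh*) genes gave 15 lower and none higher of 48. In the other direction, 10 of 15 *irld* genes, which resemble the ligand-binding part of insulin and EGF receptors, were called higher and 2 lower (median 2.73), as were 9 of 22 neprilysin-like (*nep*) peptidase genes, with 1 lower.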
